A study of Mus musculus with 2 samples.

Results

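The cells described here are the wild-type cells in which Actb, the gene of beta-actin, took at least 0.25% of all unique molecular identifiers (UMIs, each counting 1 captured mRNA molecule). The Actb share chose them, so their Actb level is a description and not a result. Cells first had to show at least 1000 genes, 1 to 10% mitochondrial UMIs, and fewer than 5 UMIs summed over Col1a2, Col3a1 and Acta2, which mark fibroblasts and contractile cells. Of the 954 wild-type cells, 893 passed these limits, and 185 of the 893 were Actb-high (20.7%, exact 95% binomial interval 18.1 to 23.5%). They were compared with the 666 passing wild-type cells whose Actb share was under 0.12%, called comparison cells below. The other 42 passing cells lay between these limits.

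The study profiled mouse induced pluripotent stem cells (iPSCs, somatic cells reprogrammed to an embryonic stem cell-like state) on a droplet platform, which tags the RNA of each cell with a barcode. The wild-type library came from SRFf/f cells, which carry floxed and unrecombined alleles of Srf, and the knockout library from SRFΔ/Δ cells, in which Srf is deleted. Both were grown in medium with serum, and each genotype had 1 library of 954 or 1073 cells. Whether a line was 1 clone, and which Cre made the deletion, are not given in the sources used here. Cells of 1 library are not replicates, so no test or p-value is given. Intervals on summed UMIs and their ratios cover counting error only and leave out the spread between cells. Those on shares of cells treat the cells as independent draws. No interval covers the spread between cultures or libraries.

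Srf encodes serum response factor, a transcription factor that binds the CArG box. With its MRTF cofactors, which sense free actin monomers, it drives actin and other cytoskeletal genes, and with its TCF cofactors it drives immediate early genes after serum or growth factor signals. Actb and Actg1, the genes of the cytoplasmic actins, are classical targets, as are the transcription factor genes Fos and Egr1, the calponin gene Cnn2 and Wdr1, which encodes a cofactor of actin filament disassembly. The comparison asked whether these targets move with Actb, and which other genes do.

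The Actb-high cells were shallow. Their UMIs per cell ran from 4665 through a median of 11280 to 45589, against 4636, 29097 and 65395 in the comparison cells. Of the Actb-high cells, 136 of 185 (73.5%, 66.5 to 79.7%) had fewer than 15000 UMIs, as against 14 of 666 comparison cells (2.10%, 1.15 to 3.5%). Read the other way, 136 of the 159 passing wild-type cells under 15000 UMIs were Actb-high (85.5%). Actb took a median of 0.50% of UMIs in the Actb-high cells and 0.0581% in the comparison cells. The excess was also present per cell, with a median of 57 Actb UMIs (13 to 166) in an Actb-high cell and 17 (at most 61) in a comparison cell. The 3 cells just inside the limit had Actb shares of 0.253, 0.264 and 0.268%, and the 3 just outside 0.248, 0.246 and 0.244%.

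**Figure D1:**
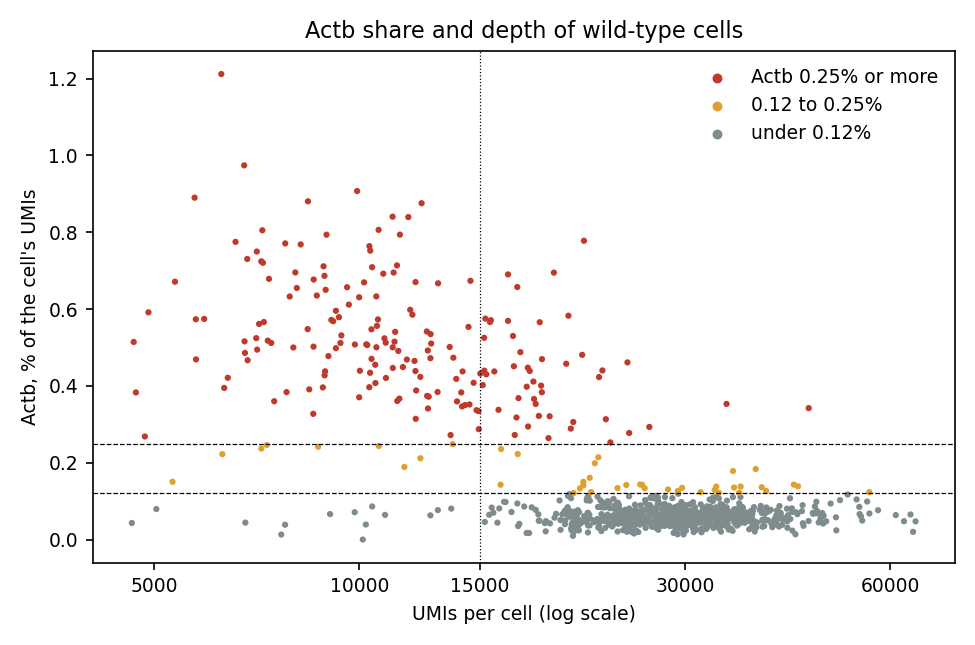
Actb share of UMIs (vertical axis, percent) against UMIs per cell (horizontal axis, log scale) for the 893 wild-type cells that passed the limits, 1 point a cell. Dashed lines mark 0.12 and 0.25%, the dotted line 15000 UMIs; most of the 185 Actb-high cells lie left of 15000 UMIs and only 14 comparison cells do.

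The label of pluripotent cells held for nearly all of them. The 8 pluripotency markers (Pou5f1, Sox2, Nanog, Sall4, Esrrb, Zfp42, Dppa5a and Tdgf1) took a median of 1.2% of UMIs in Actb-high cells and 1.23% in comparison cells, and 2 Actb-high cells had less than 0.10%. Of other cell types, 1 Actb-high cell carried at least 5 macrophage UMIs, 0 carried at least 5 fibroblast UMIs and 1 carried at least 5 primitive endoderm UMIs. Summed macrophage markers were at 160.1 CPM (counts per 1000000 UMIs of the group) in Actb-high cells and 49.5 in comparison cells, with 0 of 10 markers at 0 in either. In the 183 wild-type cells with the raised set described below they were at 13.2 CPM. Summed fibroblast markers were at 3.46 and 11.4 CPM, and 6 of 9 were at 0 in the Actb-high cells. The mitochondrial share was similar, with medians of 3.80 and 3.43%, and so was the ribosomal protein share, at 37.1 and 38.1%. Of 26 Xist UMIs in the Actb-high cells, 21 were in 1 cell. No Actb-high cell was called a doublet, but only 2 wild-type and 1 knockout cells were called at all, so some doublets may remain. The libraries shared 2 cell barcodes, neither from an Actb-high cell.

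At any depth, a short list of genes was higher together with Actb. UMIs were summed over the cells of each group and scaled to CPM, and 2248 genes reached a mean of 50 CPM, Actb left out. Of these, 55 were at least 1.5 times higher in Actb-high cells (2.45%) and 4 were at least 1.5 times lower (0.178%). With TMM scaling the counts were 47 and 10. The median log2 ratio of all tested genes was -0.02, and the middle 80% lay between -0.27 and 0.28. The 24 genes at least 2 times higher had log2 ratios from 1.06 to 4.28 and a median of 1.97. That they lie outside this middle range is set by the 2-fold cut. These 24, called the raised set below, were singled out after their values were seen.

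Rpgrip1, which encodes a scaffold of the photoreceptor cilium, led the set. It was at 419.6 CPM (393.7 to 446.9) in Actb-high cells and 21.6 (19.6 to 23.7) in comparison cells, a log2 ratio of 4.28 (4.11 to 4.45). A typical Actb-high cell held 5 Rpgrip1 UMIs (0 to 17), and a typical comparison cell 0 (at most 5). The per-cell ranges overlap at this low count, although the typical Actb-high cell sat at the comparison maximum.

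Spry2, an inhibitor of receptor tyrosine kinase and ERK signalling, was at 388.1 against 27.8 CPM (log2 3.80, 3.65 to 3.96), and its median count was 4 UMIs per Actb-high cell (0 to 27) and 1 per comparison cell (at most 8). It was the single gene at least 1.5 times higher among 3 tested of 12 ERK feedback and FGF genes, beside 2.45% of all tested genes. A count from 3 genes says little about the list. Etv4 and Etv5, transcription factor genes that ERK signalling induces, had log2 ratios of 0.21 and -0.06. Under 15000 UMIs they had 0.86 and -0.17, at 7 and 11 comparison UMIs. There 2 of the 3 tested genes were higher, beside 13.2% of all tested genes. Without the cells that lacked pluripotency markers it was 1 of 3.

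Supt16, a subunit of the histone chaperone FACT, was at 406.2 against 50.1 CPM (log2 3.02, 2.89 to 3.15). Slc24a5, an ion exchanger known from pigment cells, was at 171.8 against 17.8 (log2 3.27, 3.06 to 3.48). Amt, an enzyme of glycine cleavage, was at 149.7 against 10.9 (log2 3.79, 3.54 to 4.04). Their known roles differ, and Rpgrip1 and Slc24a5 are best known from eye and pigment cells. Rpgrip1 overlaps Supt16 in the genome and Slc24a5 overlaps Myef2, so the values within each pair are uncertain, as described below.

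Cbx3, which encodes the heterochromatin protein HP1 gamma, was the most abundant of the set, at 767.9 against 103.3 CPM (log2 2.89, 2.80 to 2.99). Its median count was 9 UMIs (0 to 24) in an Actb-high cell and 3 (at most 18) in a comparison cell. The heat shock transcription factor gene Hsf2 had a log2 ratio of 3.53 and Ncoa3, a nuclear receptor coactivator, 2.17. Among genes of metabolism, Insig1, which restrains sterol synthesis, was at 2.67 and Pfas, an enzyme of purine synthesis, at 2.37. All of these ratios are differences on the log2 scale, not levels.

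The rest of the set spread over many roles. Alkbh5, Wtap and Ythdf2, which encode an eraser, a writer subunit and a reader of N6-methyladenosine in RNA, had log2 ratios of 1.95, 1.80 and 1.31. Rrn3, an initiation factor of RNA polymerase I, was at 1.96, and Birc6, an inhibitor of apoptosis proteins with ubiquitin ligase activity, at 1.98. Actr2, a subunit of the Arp2/3 complex that branches actin filaments, was at 1.65 (180.8 against 57.8 CPM). Skil, a repressor of TGF-beta signalling, was at 1.79, and the mitochondrial protease gene Yme1l1 at 1.71. Mcmbp, whose product binds the replicative helicase, had 1.68, the Golgi receptor gene Kdelr2 1.49 and the splicing gene Arglu1 1.45. Myef2 was at 2.11 and Prrc2c at 1.08. Sall4, a transcription factor gene of the pluripotency network, closed the set at 1.06 (131.1 against 63.2 CPM).

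Of the 10 core pluripotency genes, all tested, Sall4 was the only one at least 1.5 times higher and 0 were lower. Over all tested genes the shares were 2.45% and 0.178%. Pou5f1, a master factor of pluripotency, was at 761.9 against 816.6 CPM (log2 -0.10), Nanog at 110.8 against 100.8 and Sox2 at 204.6 against 203.5. Per cell the picture differs, since total UMIs differ: the mean was 9.52 Pou5f1 UMIs in an Actb-high cell and 24.4 in a comparison cell, while Rpgrip1 had 5.24 and 0.646 and Cbx3 9.59 and 3.09. Of the 24 raised genes, 22 had a higher mean UMI count per cell in the Actb-high cells. The exceptions, Prrc2c and Sall4, had the lowest CPM ratios of the set. The mean per cell follows from the CPM ratio, by which the set was chosen, and the depth of the groups. This count is therefore no separate support.

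A further 31 genes were 1.5 to 2 times higher. They included Trim71, an RNA-binding protein gene of early development (122.9 against 61.6 CPM, log2 1.0), Rhoa, a GTPase that promotes actin stress fibres (273.0 against 149.0, log2 0.87), and Iqgap1, an actin-binding scaffold (0.64). These 3 were chosen after their values were seen. S100a6, a calcium-binding protein gene on the list of fibroblast and feeder genes, was also among them (log2 0.82). It was the only higher gene of 5 tested on that list, beside 2.45% of all tested genes. A count from 5 genes says little about the list. However, 160 of the 263 S100a6 UMIs came from the 11 Actb-high cells below the 0.3% limit on the raised set, described below. Of these 160, 90 were in 1 cell, and 67 were in the 9 of the 11 that had pluripotency markers.

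The 4 lower genes were Lefty1, an inhibitor of Nodal signalling (87.0 against 141.4 CPM, log2 -0.70), Ddit4, a stress-induced inhibitor of mTORC1 (log2 -0.67), and the metabolic enzyme genes Ldhb (-0.61) and Idh2 (-0.59). Ddit4 was the only lower gene among 5 tested of the integrated stress response list, whose median was -0.32. The 12 tested glycolysis and hypoxia genes had a median of -0.21 with 0 at least 1.5 times higher or lower. Of all tested genes 2.45% were higher and 0.178% lower. Gapdh, a glycolytic enzyme, was at 1865.5 against 2321.7 CPM.

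At any depth, cell cycle genes were within 1.5 times of the comparison cells. Among 23 tested S phase genes and 27 tested G2/M genes, 0 were at least 1.5 times higher or lower, with medians of 0.05 and -0.01. Of all tested genes 2.45% were higher and 0.178% lower, so a 0 in lists of this size says little. The 11 tested naive-state genes also gave 0, the largest log2 ratio in size being -0.41 for Klf2, a naive-state transcription factor. These zeros did not hold in the narrower depth ranges given below. The 12 tested mitochondrially encoded genes had a median of 0.18 and the 3 nuclear noncoding RNAs 0.35, led by Malat1, an abundant nuclear transcript, at 0.48. The mitochondrial median was -0.32 among cells of 15000 to 22000 UMIs, so its direction was not stable with depth.

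**Figure D2:**
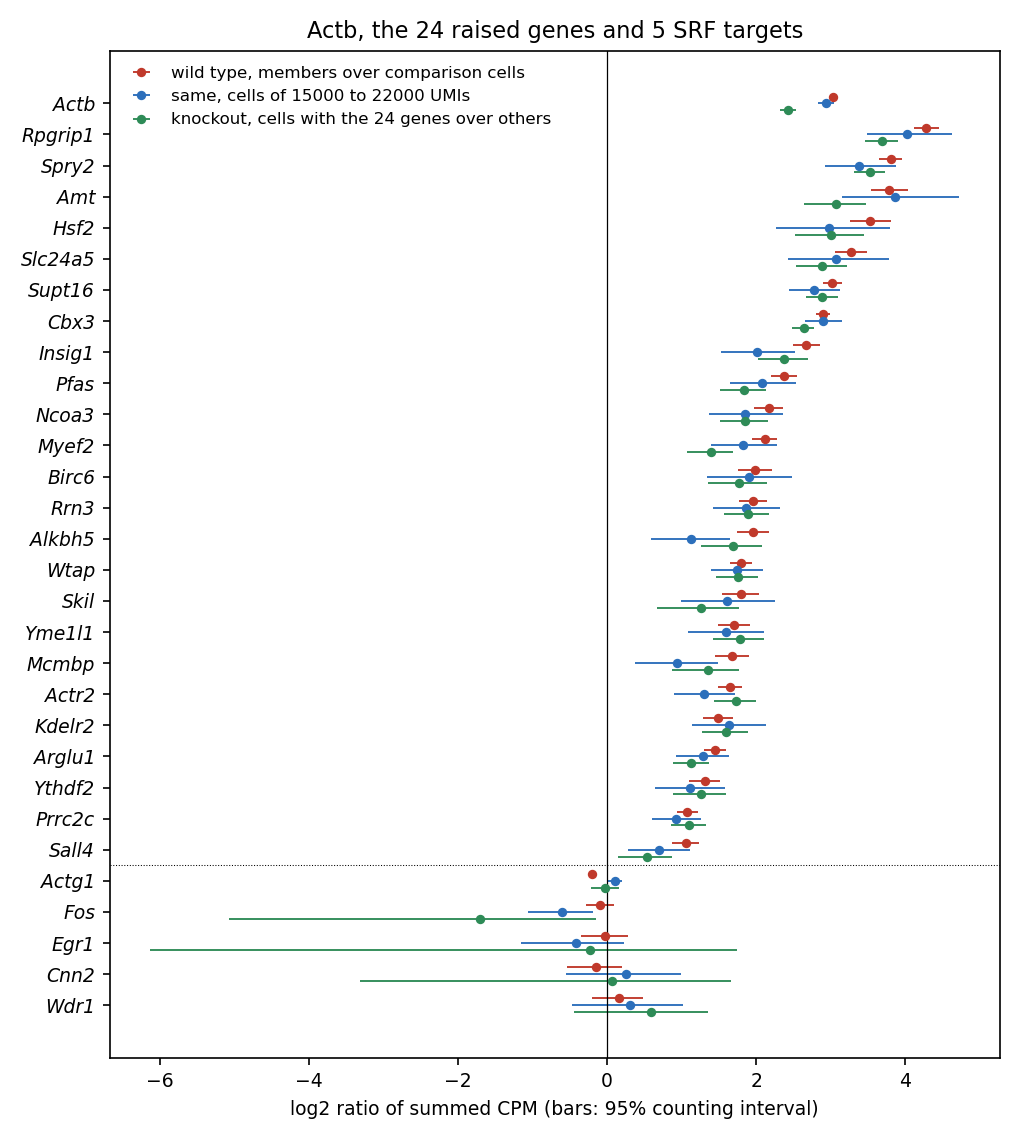
Log2 ratios of summed CPM for Actb, the 24 raised genes and 5 SRF targets (dotted line between them), with 95% counting intervals as bars. Red, Actb-high over comparison cells of the wild type; blue, the same among cells of 15000 to 22000 UMIs; green, knockout cells chosen by the raised set over the other knockout cells, in which the 24 genes were used for the choice and Actb and the SRF targets were not. The raised genes run from 1.06 to 4.28 in red, while the red points of the SRF targets lie between -0.20 and 0.16.

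Taken over cells of all depths, none of the 5 other SRF targets reached the 1.5-fold limit, and Actg1 was slightly lower. The groups differ in depth here (median 11280 against 29097 UMIs), and narrower depth ranges are given below. Actg1 was at 1575.6 CPM (1524.9 to 1627.7) in Actb-high cells and 1808.6 (1789.9 to 1827.3) in comparison cells, a log2 ratio of -0.20 (-0.25 to -0.15), whereas Actb had 3.03. Fos was at 109.5 against 116.6 (log2 -0.09, -0.28 to 0.10) and Egr1 at 41.1 against 42.0 (-0.02, -0.35 to 0.28). Cnn2 was at 29.9 against 33.2 (-0.14, -0.53 to 0.21) and Wdr1 at 35.0 against 31.6 (0.16, -0.20 to 0.49). The intervals of Fos, Egr1, Cnn2 and Wdr1 include 0 and leave out a 1.5-fold difference in either direction. The median of the 5 was -0.09.

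The wider target lists had no member past the limits at any depth. Of 35 SRF cytoskeletal targets 14 were tested, and 0 were at least 1.5 times higher or lower, with a median of -0.04. Of all 2248 tested genes only 2.45% were higher and 0.178% lower, so a 0 in a list this short says little about it. The extremes were Tpm1, a tropomyosin gene (66.6 against 49.9 CPM, log2 0.42), and Tagln2, a transgelin gene (83.1 against 100.4, log2 -0.27). Of 20 immediate early genes 7 were tested and 0 passed either limit, the median being -0.00118, and the same holds for this 0. Srf itself and its cofactors were too low to be tested, with the 7 genes summing to 34.2 and 32.6 CPM.

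Promoters are shown for the 2 targets with a CArG box and for the 2 leading genes of the raised set, as stretches from 150 to 21 bases before the transcription start, 5′ to 3′ on the gene's strand, with the CArG box in capitals. They come from RefSeq's annotation of GRCm38.p6, and each window searched ran from 250 bases before to 50 after the start, on both strands, for no other motif.
Actg1, chr11:120348516-120348645, minus strand: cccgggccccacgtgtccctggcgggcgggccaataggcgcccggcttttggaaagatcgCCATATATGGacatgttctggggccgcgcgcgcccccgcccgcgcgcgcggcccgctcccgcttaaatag
Cnn2, chr10:79988450-79988579, plus strand: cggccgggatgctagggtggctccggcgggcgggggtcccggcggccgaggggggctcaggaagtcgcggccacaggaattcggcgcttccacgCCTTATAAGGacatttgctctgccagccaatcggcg
Rpgrip1, chr14:52110753-52110882, plus strand: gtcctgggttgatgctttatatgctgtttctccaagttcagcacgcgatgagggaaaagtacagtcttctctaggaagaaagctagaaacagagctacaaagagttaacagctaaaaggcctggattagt
Spry2, chr14:105896840-105896969, minus strand: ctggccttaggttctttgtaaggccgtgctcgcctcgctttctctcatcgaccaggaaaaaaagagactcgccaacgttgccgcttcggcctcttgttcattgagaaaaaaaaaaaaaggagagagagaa

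A CArG box lay in 535 of all 32851 promoter windows (1.63%). It starts 90 bases before the start of Actg1 and 56 bases before that of Cnn2. Of the 5 SRF targets 4 were matched by symbol and 2 held it; Egr1 and Actb were not matched. Among the wider cytoskeletal targets 7 of 37 windows held it (18.9%). Of the raised set 18 genes with 21 windows were matched, and 0 windows held it. A match is a description of letters, and its absence says only that these letters are not in this window.

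Below the Actb-high range, summed Actg1 was higher in bins of higher Actb. In cells with Actb shares under 0.03%, from 0.03 to 0.06% and from 0.06 to 0.12%, Actg1 was at 1493.7, 1758.6 and 1904.9 CPM, with intervals that did not overlap. In the 42 cells between the limits it was at 2482.7 (2388.4 to 2579.7), the highest of all bins. In the Actb-high bins of 0.25 to 0.4%, 0.4 to 0.6% and above 0.6% it was at 1657.7, 1574.7 and 1449.3. Rpgrip1 was at 12.3, 21.9, 22.8 and 62.7 CPM in the first 4 bins, the last of which holds 8 cells with the raised set. It parted from Actg1 in the Actb-high bins, where it was at 313.6, 427.4 and 567.4. Depth differed between these bins as well. The median was 24261.5 UMIs from 0.12 to 0.25%, and 14500, 11257 and 9591 in the Actb-high bins. The part of depth in the Actg1 and Rpgrip1 levels was not tested. Cell by cell, after each was thinned to 6000 UMIs, Actb and Actg1 had a Pearson correlation of only 0.02 across 664 comparison cells and -0.09 across 176 Actb-high cells, a description of sparse counts from 1 library.

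**Figure D3:**
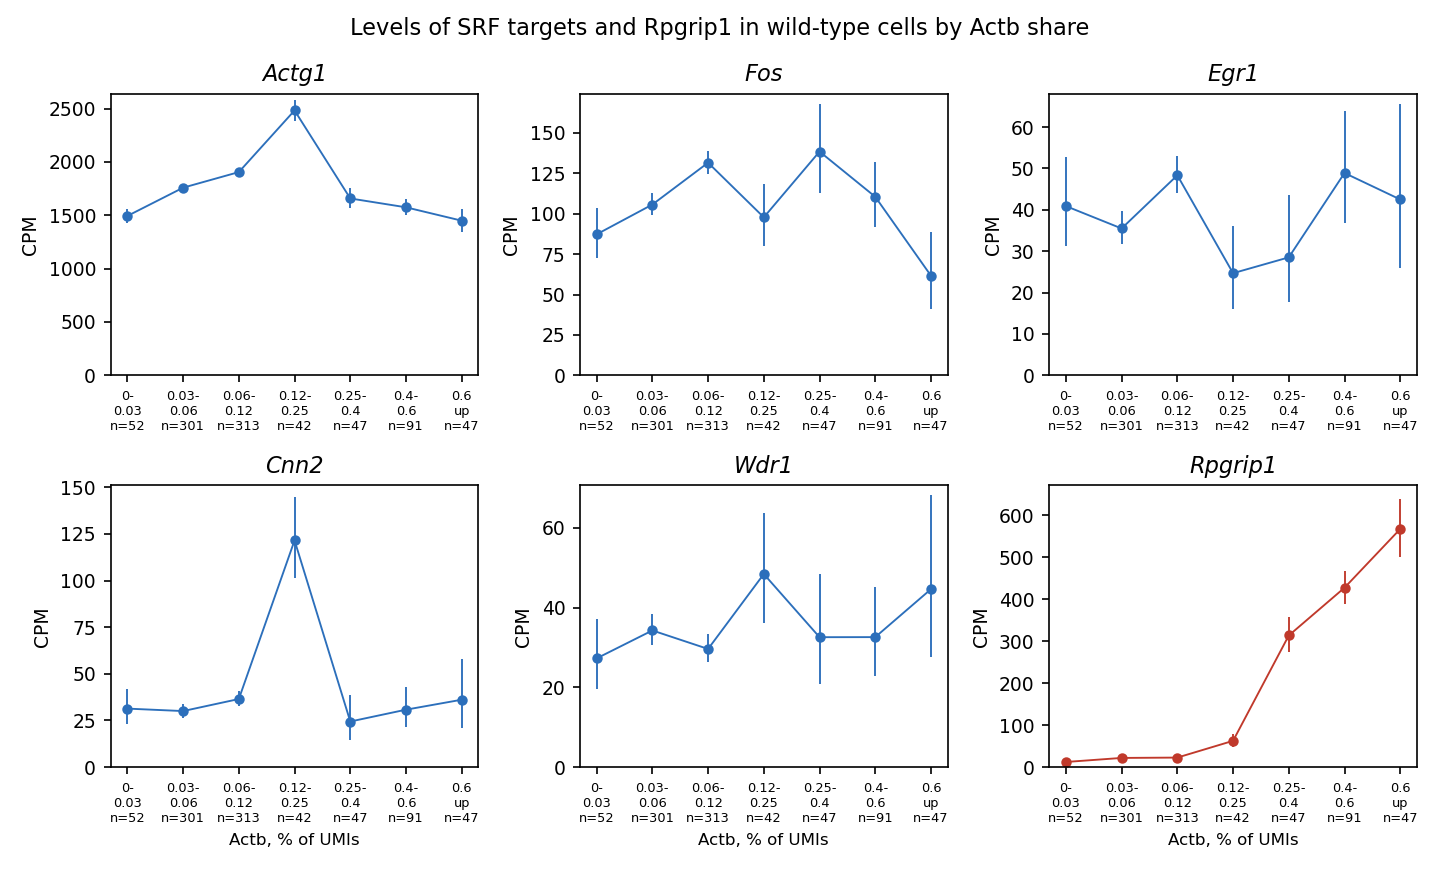
Levels of Actg1, Fos, Egr1, Cnn2, Wdr1 and Rpgrip1 (vertical axes, summed CPM, bars 95% counting intervals) in wild-type cells grouped by Actb share (horizontal axis, percent of UMIs, n cells under each bin). Actg1 and Cnn2 peak in the bin of 0.12 to 0.25% at 2482.7 and 121.5, and Rpgrip1 climbs in the last 3 bins, which hold the Actb-high cells. The bins differ in depth, with a median of 24261.5 UMIs from 0.12 to 0.25% and 9591 in the last bin.

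The cells between the limits were of 2 kinds. Most, 34 of 42, had little of the raised set and were deep, with a median of 27273 UMIs. In these 34, Actg1 was at 2569.1 CPM (2469.1 to 2672.1) and Cnn2 at 129.2 (107.5 to 153.9), against 1808.6 and 33.2 in the comparison cells. Without the 2 of them that lacked pluripotency markers, the values were 2458.7 and 110.7, and 28 of 101 Cnn2 UMIs came from 1 cell. Genes of other cell types were higher in the same 34 cells: S100a6 was at 293.5 against 64.4 CPM, and the simple epithelial keratin genes Krt18 and Krt8 at 374.1 against 15.4 and 314.2 against 9.44. Krt18 was seen in 10 of the 34, with 210 of its 362 UMIs in 1 cell, and the part of such cells in the Actg1 and Cnn2 values was not tested. The other 8 carried the raised set, had a median of 9685 UMIs, and showed Actg1 at 1506.5 (1257.8 to 1790.0). Thus, at moderate Actb, Actg1 and Cnn2 were higher in the cells without the raised set than in the comparison cells of all depths. The cells with it did not exceed those comparison cells in Actg1. However, the 2 kinds differ in depth, and comparison cells under 15000 UMIs had Actg1 at only 1312.0 CPM. The part of depth in these differences was not tested.

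Most Actb-high cells carried the raised set. The raised set took at least 0.3% of UMIs, a limit chosen after the values were seen, in 174 of the 185 (94.1%, 89.6 to 97.0%), in 8 of the 42 cells between and in 1 of the 666 comparison cells. The medians were 0.516% in Actb-high and 0.0991% in comparison cells. The 174 had Actb at 5042.3 and Actg1 at 1482.3 CPM (1430.7 to 1535.3). The other 11, with a median of 18130 UMIs, had Actb at 3584.9 and Actg1 at 2500.0 (2291.6 to 2722.2). Of those 11, 8 lay close to the limit, between 0.2 and 0.3%, so they do not form a clear second kind. Of the 530 Actg1 UMIs in the 11, 191 came from 1 cell. The 174 were shallower, with a median of 11239.5 UMIs, and the part of depth in the Actg1 values was not tested.

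**Figure D4:**
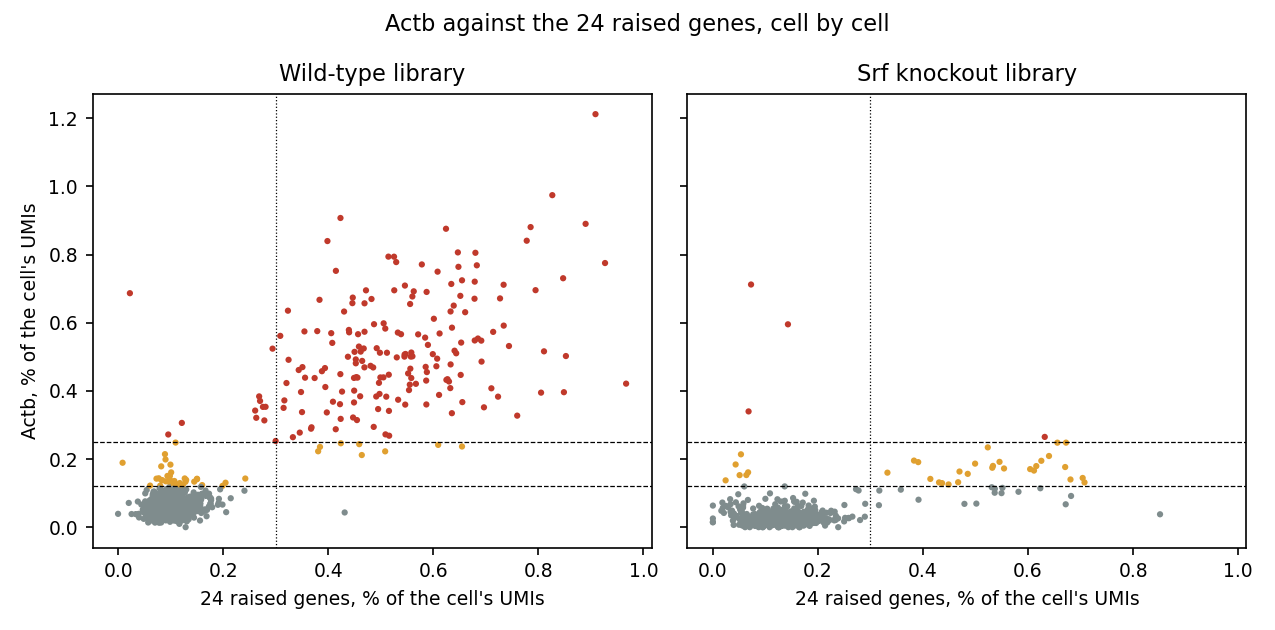
Actb share (vertical axis, percent of UMIs) against the summed share of the 24 raised genes (horizontal axis) in each cell that passed the limits, wild type left and Srf knockout right. Red, Actb at least 0.25%; orange, 0.12 to 0.25%; grey, below; the dotted line marks 0.3%. The 24 genes were picked from these wild-type cells, in which 174 of 185 red points lie right of the dotted line. In the knockout 44 of 731 cells do, with Actb shares mostly from 0.1 to 0.2%.

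To remove depth, each cell was thinned to 6000 UMIs, which left out 9 Actb-high and 2 comparison cells as too shallow. Rpgrip1 was then seen in 158 of 176 Actb-high cells (89.8%, 84.3 to 93.8%) and in 81 of 664 comparison cells (12.2%, 9.81 to 14.9%). Before thinning the shares were 96.8 and 43.5%, at median depths of 11280 and 29097 UMIs. The 9 cells excluded from all groups for collagen and Acta2 UMIs, which serve as a type that should lack the gene, showed it in 0 of 9 at a median depth of 21118 (upper bound 33.6%). Fos was seen in 40.3% of thinned Actb-high and 39.5% of comparison cells, and Egr1 in 22.2 and 19.6%. Genes per thinned cell were alike, with medians of 1862 and 1840, while an Actb-high cell showed a median of 15.5 of the 24 raised genes and a comparison cell 5. Rpgrip1 and the other raised genes were picked from these same cells, so their values here are no independent support.

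Actb-high cells also lay near each other by their other genes. When cells were placed by 2000 variable genes without Actb, a mean of 57.8% of the 15 nearest neighbours of an Actb-high cell were also Actb-high, against 3.14% for a comparison cell. Of the 881 cells placed, 176 were Actb-high. With the raised set left out as well the means were 37.3 and 8.91%, and with all 55 higher genes left out 32.9 and 10.2%. The genes left out were chosen from these same cells, and the shares describe cells of 1 library that are not independent samples.

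Among cells under 15000 UMIs the comparison rested on 136 Actb-high cells and 14 comparison cells, whose UMIs summed to 1359386 and 131856. Of 2387 tested genes, 316 were at least 1.5 times higher (13.2%) and 612 at least 1.5 times lower (25.6%), but 251 of these 928 had fewer than 10 UMIs in the comparison cells. With TMM scaling, which shifts all log2 ratios by 0.38, the split was 799 higher and 306 lower. In addition, 3 of the 14 comparison cells had under 0.10% of UMIs in pluripotency markers, and the median mitochondrial share was 6.44% in the 14 against 4.05% in the 136.

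The 136 cells are part of the 185 in which the raised set was picked, so its values here are no independent support. All 24 genes had log2 ratios above 0 and 21 were at least 1.5 times higher. Without the cells that lacked pluripotency markers this no longer held for all: Prrc2c was at 244.6 against 288.4 CPM (log2 -0.26), and Mcmbp and Arglu1 had log2 ratios of 0.04 and 0.21. By the rule that names the 12 highest genes going the same way at any depth, these were Spry2, Rpgrip1, Ncoa3, Insig1, Amt, Pfas, Cbx3, Supt16, Kdelr2, Birc6, Mafg and Alkbh5, of which only Mafg, a small Maf transcription factor gene, is outside the raised set. Rpgrip1 was at 536.3 CPM (729 UMIs) against 30.3 (4 UMIs), a log2 ratio of 3.98 (2.78 to 6.02). Slc24a5, the remaining marker given for these cells, had 290 against 6 UMIs and a log2 ratio of 2.12 (1.09 to 3.69).

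The 12 lowest genes by the same rule were Bgn, Mmp12, Mgp, Ctla2a, Cxcl2, Igfbp7, Pf4, Ptn, Ccl6, Spp1, Serpine2 and F2r, among them matrix genes of fibroblasts and chemokine genes of macrophages. Bgn, a matrix proteoglycan gene, had 0 UMIs in the Actb-high cells and 78 in 2 comparison cells. Mmp12, a macrophage protease gene, had 0 and 54, the latter in 1 cell. Without the cells that lacked pluripotency markers, Bgn, Mmp12, Ctla2a and Pf4 had 0 UMIs in both groups.

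Under 15000 UMIs the SRF targets split. Actg1 was at 1462.4 against 1312.0 CPM (log2 0.15, -0.07 to 0.39) and Cnn2 at 35 against 8 UMIs (log2 -1.30, -2.37 to 0.08). Fos had 158 UMIs in the Actb-high and 2 in the comparison cells (log2 2.62, 1.06 to 6.0), and Wdr1 47 and 2 (log2 0.88, -0.74 to 4.28). Egr1 had 63 and 0 UMIs, which is at least 2.04-fold higher when the comparison cells are set to 3 counts. The median of the 5 was 0.88, but Fos, Egr1 and Wdr1 rest on 2, 0 and 2 comparison UMIs. Of the wider cytoskeletal targets, 1 of 20 tested was higher and 9 were lower (median -0.40), beside 13.2 and 25.6% of all tested genes. The lowest were the integrin gene Itgb1 (-2.34) and the tropomyosin gene Tpm4 (-2.19), at 15 and 25 comparison UMIs. Without the cells that lacked pluripotency markers, 2 of 18 were higher and 5 lower (median -0.12), beside 245 and 797 of 2460 genes. The summed CPM of the list turned from 8432.5 against 10177.8 to 8118.8 against 6268.0. Of 7 tested immediate early genes, 3 were higher and 2 lower, and without the same cells 2 of 5 were higher and 0 lower. The naive-state list had 5 of 9 higher and 0 lower, led by the transcription factor gene Klf4 (log2 1.35). Without the same cells it had 2 of 10 higher and 2 lower. The G2/M list had 2 of 32 higher and 10 lower, and the S phase list 6 of 24 higher and 4 lower. Without the same cells the G2/M list had 1 of 33 higher and 12 lower, and the S phase list 4 of 25 and 10. The levels of Fos and Egr1 in the Actb-high cells themselves, 116.2 and 46.3 CPM, were close to the 116.6 and 42.0 of the comparison cells at any depth.

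A window of 15000 to 22000 UMIs, added after the data were seen, held 40 Actb-high and 84 comparison cells with medians of 17624 and 20434 UMIs. Of 2244 tested genes, 120 were at least 1.5 times higher (5.35%) and 40 lower (1.78%). All 24 raised genes were at least 1.5 times higher, as were 45 of the 55. These 40 cells, too, are among the 185 in which those genes were picked. Actg1 was at 1638.6 against 1527.8 CPM (log2 0.10, -0.00 to 0.20), while Actb was at 4518.2 against 591.5. Fos was lower, with a log2 ratio of -0.61 (-1.07 to -0.19), and Egr1 had -0.42 (-1.15 to 0.22), so neither kept the direction it had under 15000 UMIs. Of the lists, the cytoskeletal targets had 1 of 14 lower, the naive-state genes 1 of 11 higher and 2 lower, the G2/M genes 4 of 25 higher and the S phase genes 0 of 22 past either limit. Cnn2 was at 0.25 (-0.55 to 0.99) and Wdr1 at 0.31 (-0.46 to 1.02). The median mitochondrial share was 3.39% in these Actb-high and 4.2% in these comparison cells. The part of depth and of these shares in the differences was not tested.

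The knockout library was read in the same way, after a check of its label. Srf, the deleted gene, had 17 UMIs in all 1073 knockout cells and 209 in all 954 wild-type cells. Only 4 of 731 passing knockout cells reached an Actb share of 0.25% (0.547%, 0.149 to 1.39%), and 3 of these 4 carried at least 5 macrophage UMIs. By the raised set, however, 44 of the 731 (6.02%, 4.41 to 8.0%) reached 0.3%. They were shallow as well: the median depth was 11509 UMIs, as compared with 24923 for the remaining 687.

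Those 44 cells had more Actb, which played no part in choosing them. Actb was at 1441.0 CPM (1343.1 to 1544.2) against 267.3 (259.7 to 275.1), a log2 ratio of 2.43 (2.32 to 2.54), and Actg1 at 423.0 against 431.0 (log2 -0.02, -0.22 to 0.16). The median Actb share was 0.141% against 0.0228%. Among knockout cells under 15000 UMIs, 33 with the raised set and 83 without, Actb was at 1466.4 against 544.6 CPM (log2 1.43, 1.24 to 1.62) and Actg1 at 418.1 against 675.3 (log2 -0.69, -0.97 to -0.42). The size of the Actb difference and the Actg1 value thus differed between the comparison at any depth and that under 15000 UMIs. The 83 cells without the set also held more RNA of other cell types. Macrophage markers summed to 2675.4 CPM in them and 15.15 in the 33, and fibroblast and feeder genes to 2500.7 and 827.1. The part of depth and of such cells in these values was not tested. With limits of 0.4 or 0.5% on the raised set the Actb log2 ratio was 2.45, and with 0.2% it was 1.52. Macrophage markers summed to 12.5 CPM in the 44 and 147.7 in the other 687, and 0 of the 44 carried 5 or more such UMIs.

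The genes that were less raised in the wild type were partly higher in these cells. Of the 31 genes that were 1.5 to 2 times higher in Actb-high wild-type cells, 29 had log2 ratios above 0 in the 44 knockout cells and 16 were at least 1.5 times higher, beside 4.22% of the 2368 genes tested without Actb and the raised set. Trim71 was at 181.0 against 84.4 CPM (log2 1.11, 0.79 to 1.39) and Zmynd8, a chromatin reader gene chosen after its value was seen, at a log2 ratio of 1.10 (0.66 to 1.49). In contrast S100a6 had a log2 ratio of -0.58. A library is not a replicate, so this is a second set of cells and not a test.

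The raised genes were spread over the genome. They lay on 14 chromosomes, at most 5 on any, and the median log2 ratio of all tested genes on a chromosome ran only from -0.06 to 0.04. Rpgrip1 (chr14:52110704-52163546, plus strand) and Supt16 (chr14:52160414-52197416, minus strand) overlap by 3133 bases in GENCODE's annotation of GRCm38. Slc24a5 (chr2:125068124-125088677, plus strand) and Myef2 (chr2:125084628-125123661, minus strand) overlap by 4050 bases. Amt ends 3826 bases before Rhoa starts on the same strand of chromosome 9. How reads of overlapping genes were assigned is not given in the sources used here, so the values within each pair are uncertain.

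The raised genes had long transcripts. The longest annotated transcript had a median of 4183 bases for the 24 genes, 4461 for the next 31 and 2419 for the 2189 within 1.5 times, and the 4 lower genes had 1688. Their GC content was lower, with medians of 46.3, 46.4, 49.5 and 56.7% in the same order. Over all 2248 tested genes ordered by length and cut into 5 groups of 449 or 450, the median log2 ratio was -0.06, -0.09, -0.04, 0.02 and 0.15 from short to long. In the knockout cells with the raised set the same length groups had medians of -0.08, -0.10, -0.05, 0.04 and 0.18. The part of transcript length in the log2 ratios of the raised set was not tested.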

How the data were processed

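The 10x Genomics Chromium libraries, 1 of knockout and 1 of wild-type mouse iPSCs, were read on a NovaSeq 6000, per the labels. The authors deposited whole-number UMI counts per gene and cell, not normalised, per the file headers. Cell Ranger 2.0.0, Seurat 3.1.1 and mm10 are named in the submitters' processing notes; the annotation, the rule for calling cells and the assignment of shared or antisense reads are not given in the sources used here.

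The wild-type library held 24005849 UMIs (median 25907 per cell) and the knockout 22277996 (20605). Counts were summed over the cells of a group, scaled to CPM, and compared as log2 ratios after 0.5 was added to every sum. A fold of 1.5 was asked of genes whose mean over the groups reached 50 CPM. Intervals are exact (Poisson, Clopper-Pearson) at 95%. Those on summed UMIs and their ratios cover counting error only, and those on shares of cells treat the cells as independent draws. Since each genotype has 1 library, none covers the spread between libraries. Doublets were called with Scrublet in scanpy 1.11.5, TMM factors with edgeR 4.0.16, and the summing and ratios were tested on simulated counts. Of 27998 genes, 27645 (98.7%) were matched to GENCODE M21.

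The named genes are the SRF targets and markers given for these cells, the 12 highest and 12 lowest genes under 15000 UMIs that go the same way at any depth, up to 4 genes of each list, and Xist. The members, gene lists and limits were chosen with earlier results of these data known. Alternatives covered the Actb, depth, mitochondrial, collagen and expression limits, the scaling, the added counts, cell weighting, doublets and chromosome 8 share. A window of 15000 to 22000 UMIs and the removal of cells without pluripotency markers were added after seeing the data.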

Additional observations from a re-analysis of the deposited data

How the results depend on the processing

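The raised set kept its median log2 ratio at any depth between 1.84 and 2.03 under 18 alternatives, and the ratio of median UMIs, 0.388, lay between 0.385 and 0.403 under 9. At any depth the count of higher genes (55) became 92 with totals without mitochondrial and ribosomal protein genes, 143 with a minimum of 20 CPM and 120 in cells of 15000 to 22000 UMIs. The count of lower genes (4) became 1 with Actb-high cells from 0.20%, 7 from 0.30%, 10 with each cell weighted alike, 10 with TMM factors (beside 47 higher), 16 without mitochondrial and ribosomal protein totals, 24 at 20 CPM and 40 in the window. The median of the 5 SRF targets, -0.09 at any depth, became 0.12 without the collagen and Acta2 limit and 0.10 in the window, where Actg1 turned from -0.20 to 0.10. Under 15000 UMIs the higher genes (316) became 491 under 10000 UMIs, 663 without mitochondrial and ribosomal protein totals, 799 with TMM factors, 654 at 20 CPM, 195 with 2 counts added and 120 in the window. The lower genes (612) became 941 without mitochondrial and ribosomal protein totals, 306 with TMM factors, 1634 at 20 CPM and 40 in the window. Fos turned from 2.62 to -0.61 in the window, and Egr1, with 63 against 0 UMIs under 15000, to -0.42. Minimums and totals change which genes are tested, and the window changes the cells; the cause of the other moves was not tested. No paired analysis was possible because the groups are cells of the same library. Depth limits the comparison under 15000 UMIs, where 14 comparison cells give 131856 UMIs.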

Other observations

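A few cells outside the mitochondrial limits carried the raised set as well. Among the 244 knockout cells with under 1% mitochondrial UMIs, 9 did (3.69%, exact 95% interval 1.70 to 6.89%), with a median Actb share of 0.218% against 0.0341% in the other 235. Among the 71 knockout cells above 10% mitochondrial UMIs, 2 did, with 0.196% against 0.00797%. In the wild type it was 1 of 16 cells below and 1 of 33 above the limits. The 1 comparison cell with the raised set had 4636 UMIs and an Actb share of 0.0431%.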
